A study of Mus musculus with 12 samples.

Results

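The transcripts of 10 genes that mark macrophages and other leukocytes were followed through 12 RNA-seq libraries of mouse cells between fibroblast and induced pluripotent stem cell. They were chosen by symbol (Lyz2, Cd68, C1qa, C1qb, C1qc, Csf1r, Ptprc, Tyrobp, Fcer1g and Cd14), and all 10 were found among the 23420 genes counted. The libraries form 4 groups of 3. MEF are mouse embryonic fibroblasts, the starting culture. Stage1 is day 6 of reprogramming, Stage2 is day 6 followed by 4 more days, and iPSC are established induced pluripotent stem cells. All 4 groups came from the same mixed C57BL/6 x 129 background, and every group but MEF was sorted for cells with an active Oct4-GFP reporter, per the series text. Neither the age of the embryos nor the passage of the fibroblasts or the reprogramming factors is named in the labels. Separate cultures are not stated for the replicates, so the p-values cover only the spread from library to library, which may be technical.

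The groups were taken from the titles, and the stage among the characteristics named another group in 12 of 12 libraries. Defining genes were therefore read in each library. Levels are given as counts per 1000000 reads assigned to genes (CPM) after TMM scaling. The summed level of 16 fibroblast genes was 47595 to 53248 CPM in the libraries titled MEF and 355 to 1587 CPM in the other 9. The summed level of 10 pluripotency genes was 4.76 to 6.15 CPM in MEF and 3111 to 7598 CPM in the others. Reads assigned to genes ranged from 8916223 to 19011944 per library. Thus 3 counts, the limit that a count of 0 allows, correspond to 0.158 to 0.336 CPM before TMM scaling. MEF libraries also stood apart in 2 technical measures: reads outside genes made up 8.86 to 9.42% there and 35.0 to 53.4% elsewhere, and 13817 to 14586 genes had a count there against 18863 to 20548 elsewhere. The part of these measures in the differences below was not tested.

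Macrophages are phagocytes that settle in connective tissue from early in embryonic life. They depend on signals through the Csf1 receptor, engulf dying cells, digest them in lysosomes and sense microbes and immune complexes. A set of proteins serves these tasks: lysozyme and CD68 in lysosomes and secretions, C1q as the recognition unit of complement, and receptors that signal through the small adaptors encoded by Tyrobp and Fcer1g. Fibroblasts and pluripotent cells are not the usual site of most of these transcripts. Primary embryonic fibroblast cultures are prepared from dissociated embryo tissue, which contains macrophages. Which cells of the MEF cultures held the transcripts was not tested.

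Promoter sequences are shown first. Whether the motifs in them bear on the levels of the transcripts was not tested. RefSeq promoter entries (GRCm38.p6) were matched for 6 of the 10 genes: C1qb, C1qc, Cd68, Fcer1g, Lyz2 and Ptprc. The 250 bases before each start were searched on both strands for the core of PU.1, the transcription factor of the myeloid lineage, spelled GAGGAA. A match lay in 4 of the 6 genes, beginning 30 bases before the start of C1qb, 193 before C1qc, 225 before Cd68 and 158 before one start of Ptprc. Of all 32851 promoters of the table, 23.3% held the same letters. The CCAAT box (CCAAT) was found in Cd68 alone of the 6 and in 33.8% of all promoters, and the AP-1 motif (TGANTCA) in Cd68 alone and in 6.75% of all. The TATA box (TATAAA) was found in Ptprc alone and in 12.4% of all, and the E-box (CACGTG) in none of the 6 and in 6.02% of all. In these windows no match of one motif overlapped a match of another. The lines below give the strand of the gene, minus in all 4, up to the start, and capitals mark the PU.1 core. For C1qc and Lyz2 the run ends where the GENCODE gene begins, which lies further upstream than the RefSeq start.
C1qb, chr4:136886201-136886450, 250 bases: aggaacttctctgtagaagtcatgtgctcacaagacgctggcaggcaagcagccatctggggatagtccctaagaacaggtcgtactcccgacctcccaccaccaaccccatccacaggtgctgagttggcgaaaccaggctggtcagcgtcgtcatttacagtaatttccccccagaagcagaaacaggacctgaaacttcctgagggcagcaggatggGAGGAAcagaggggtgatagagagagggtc
C1qc, chr4:136893066-136893164, 99 bases: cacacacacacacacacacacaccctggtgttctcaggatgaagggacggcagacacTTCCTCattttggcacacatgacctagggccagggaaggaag
Lyz2, chr10:117282322-117282522, 201 bases: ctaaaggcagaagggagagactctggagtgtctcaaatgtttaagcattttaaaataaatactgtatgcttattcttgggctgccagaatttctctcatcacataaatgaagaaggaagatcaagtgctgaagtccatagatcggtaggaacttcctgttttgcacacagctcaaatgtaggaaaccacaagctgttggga
Cd68, chr11:69666171-69666420, 250 bases: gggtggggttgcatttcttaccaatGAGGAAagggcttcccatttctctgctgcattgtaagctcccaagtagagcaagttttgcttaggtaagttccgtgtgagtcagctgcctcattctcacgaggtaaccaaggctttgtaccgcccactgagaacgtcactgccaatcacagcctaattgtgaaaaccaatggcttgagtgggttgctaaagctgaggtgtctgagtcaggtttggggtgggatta

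All 10 transcripts were present in every MEF library, and 9 of them, all but Cd68, were lower at Stage1, at Stage2 and in iPSC. Each of the 9 was called lower in each of these 3 comparisons by edgeR's quasi-likelihood test at a Benjamini-Hochberg adjusted p below 0.05 over 14770 genes, and in none did a stage library reach the lowest MEF library. Against this background, 36.1% of all genes were called lower at Stage1 than in MEF, 36.4% at Stage2 and 35.8% in iPSC. For 5225, 5257 and 5186 of the 14770 genes in that order, every library of the group lay below every MEF library. The median log2 fold change of the 10 genes was -5.35, -6.28 and -5.40 in that order, and that of all genes 0.27, 0.25 and 0.29. All 10 genes passed the filter on low counts, which the MEF libraries alone could secure. In bulk RNA, fewer cells of a type and less RNA per cell cannot be told apart. MEF was not sorted and the other 3 groups were, so the sort and the stage cannot be told apart in these comparisons either.

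**Figure D1:**
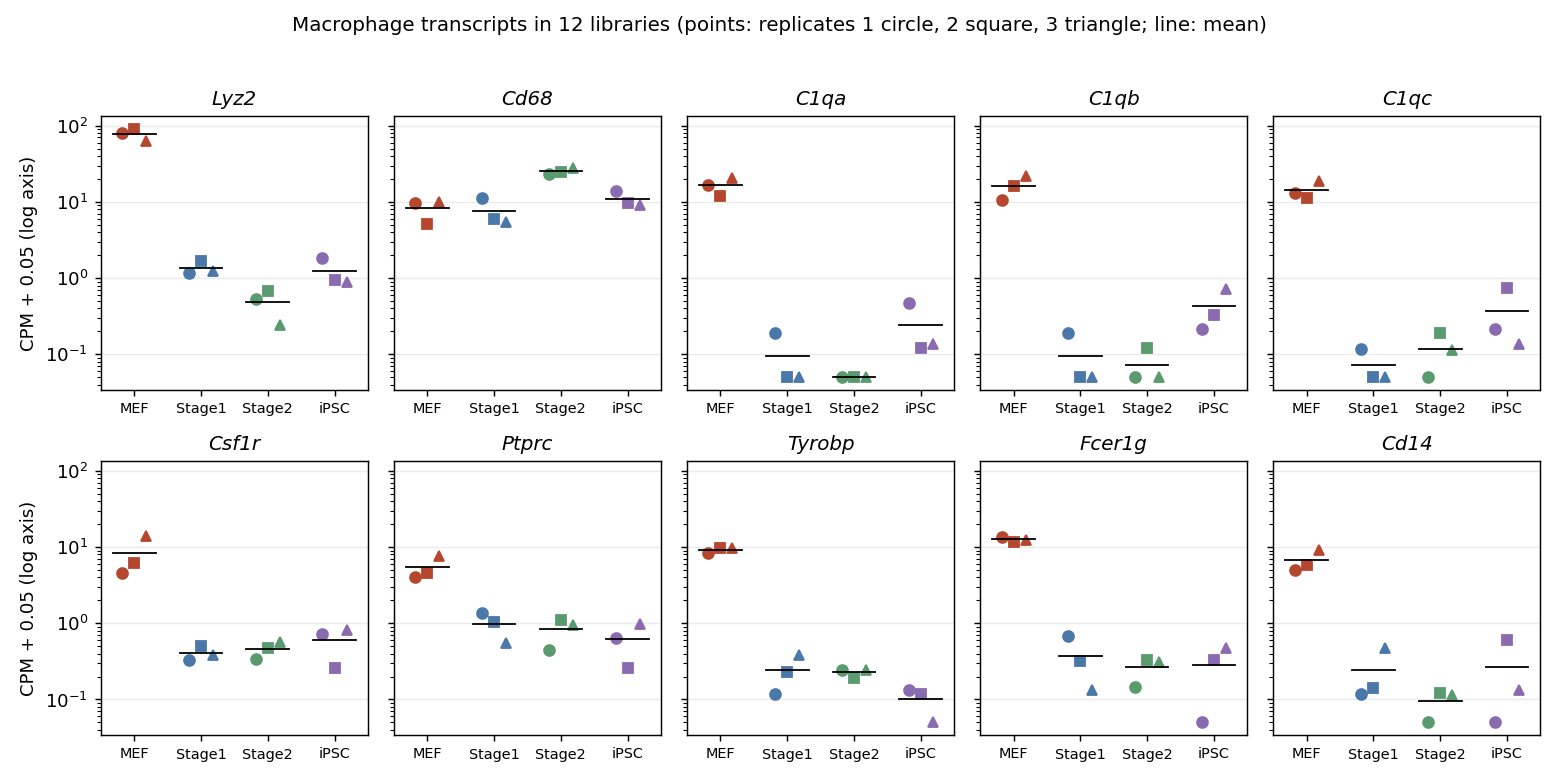
Level of each transcript in 12 libraries, as TMM-scaled CPM plus 0.05 on a log axis, by group; points are libraries (circle, square and triangle for replicates 1, 2 and 3) and lines are means of 3. The MEF points lie above all others in 9 panels, while in the Cd68 panel the Stage2 points, 22.96 to 27.5 CPM, are the highest.

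Lyz2, which encodes the lysozyme secreted by macrophages and other myeloid cells, had the most counts of the 10 in MEF. Its TMM-scaled level was 81.3, 91.6 and 62.5 CPM in MEF replicates 1, 2 and 3. It was 1.11, 1.61 and 1.18 CPM at Stage1, 0.489, 0.635 and 0.194 CPM at Stage2, and 1.76, 0.903 and 0.851 CPM in iPSC. The groups did not overlap between MEF and the rest, and the Stage2 libraries also lay below every Stage1 and iPSC library. Against MEF, Lyz2 was 60.5-fold lower at Stage1 (log2 fold change -5.92 ± 0.301 SE, adjusted p = 5.95e-12), 179-fold lower at Stage2 (-7.48 ± 0.343, adjusted p = 1.59e-12) and 67.0-fold lower in iPSC (-6.07 ± 0.304, adjusted p = 5.26e-12) by edgeR.

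Lyz1 is a paralog of Lyz2 and lies beside it on chromosome 10. Its level was 15.0, 24.1 and 12 CPM in MEF, with 0 to 1.11 CPM in the other 9 libraries. Like Lyz2 it was highest in MEF replicate 2 and lowest in MEF replicate 3. The 2 genes are alike in sequence, and the labels do not say how reads fitting both were counted, which leaves the split between them uncertain.

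Cd68 encodes a heavily glycosylated membrane protein of late endosomes and lysosomes that is widely used to stain macrophages. It was the exception among the 10. Its level was 9.52, 5.08 and 9.89 CPM in MEF and 11.3, 5.91 and 5.39 CPM at Stage1, 2 groups that overlapped. It was 22.96, 24.7 and 27.5 CPM at Stage2, above every other library, and 13.7, 9.58 and 9.19 CPM in iPSC. The Stage2 mean of 25.04 ± 2.28 CPM (SD, n = 3) stood beside 8.16 ± 2.68 in MEF, 7.54 ± 3.30 at Stage1 and 10.8 ± 2.49 in iPSC.

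Cd68 was 3.09-fold higher at Stage2 than in MEF (log2 fold change 1.63 ± 0.296 SE, adjusted p = 7.29e-05 by edgeR), where 44.6% of all genes were called higher. It was not called at Stage1 (-0.09 ± 0.303, adjusted p = 0.780) or in iPSC (0.41 ± 0.299, adjusted p = 0.208) against MEF. Cd68 was 3.29-fold higher at Stage2 than at Stage1 (1.72 ± 0.297, adjusted p = 0.000217 by edgeR) and 2.32-fold lower in iPSC than at Stage2 (-1.21 ± 0.290, adjusted p = 0.00927 by edgeR). The gene lies 782 bases from Eif4a1 on the same strand, with no annotated overlap. At Stage1 the sign of the difference from MEF turned with the scaling: it was 0.09 on library totals (adjusted p = 0.810 by edgeR).

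C1qa, C1qb and C1qc encode the 3 chains of C1q, which binds antibody complexes and dying cells and starts the classical pathway of complement. The genes sit side by side on chromosome 4, with 2851 bases between C1qa and C1qc and 3616 between C1qc and C1qb. In MEF replicates 1, 2 and 3, C1qa was at 16.7, 11.9 and 20.6 CPM, C1qb at 10.5, 16.0 and 21.6 CPM, and C1qc at 13.03, 11.4 and 18.9 CPM. All 3 chains were highest in MEF replicate 3, and their ranges over the MEF libraries overlapped.

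At Stage1 and Stage2 these chains were nearly without counts. C1qa had 2 counts over the 3 Stage1 libraries and 0 over Stage2, against 652 in MEF, which makes it at least 219-fold lower at Stage2 with the floor of 3 counts taken over the group. The ratio of MEF to Stage1, scaled by effective library size, was 309 for C1qa (95% counting interval 85.3 to 2561). C1qb had 2 counts at Stage1 and 1 at Stage2 against 682 in MEF, with ratios of 324 (89.3 to 2678) and 688 (123 to 27219). C1qc had 1 count at Stage1 and 3 at Stage2 against 588 in MEF, with ratios of 558 (99.8 to 22083) and 198 (67.3 to 962). These intervals cover counting error only. The highest adjusted p of the 3 chains over both comparisons was 1.38e-08 by edgeR.

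In iPSC the C1q chains kept a few more counts. C1qa had 5, 1 and 1 counts in iPSC replicates 1, 2 and 3, C1qb had 2, 4 and 8, and C1qc had 2, 10 and 1. The highest count thus fell in a different iPSC library for each chain. Against MEF, C1qa was 84.1-fold lower in iPSC (log2 fold change -6.39 ± 0.565 SE, adjusted p = 3.25e-08), C1qb 42.5-fold lower (-5.41 ± 0.514, adjusted p = 2.64e-08) and C1qc 42.1-fold lower (-5.40 ± 0.533, adjusted p = 4.43e-08) by edgeR. These sizes depended on single libraries: the log2 fold change was -7.56 for C1qa without iPSC replicate 1, -6.72 for C1qc without iPSC replicate 2 and -6.08 for C1qb without iPSC replicate 3.

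Csf1r encodes the receptor tyrosine kinase for Csf1 and Il34 on which macrophage survival depends. It was at 4.51, 6.22 and 14.1 CPM in MEF, the widest spread of the 10 among these libraries. The other 9 libraries held 0.208 to 0.765 CPM, all below the lowest MEF library. Csf1r was 23.4-fold lower at Stage1 (log2 fold change -4.55 ± 0.558 SE, adjusted p = 7.25e-07), 19.5-fold lower at Stage2 (-4.28 ± 0.539, adjusted p = 1.01e-06) and 15.4-fold lower in iPSC (-3.94 ± 0.527, adjusted p = 2.10e-06) by edgeR. Without MEF replicate 3 these log2 fold changes were -3.91, -3.65 and -3.30. The gene overlaps Hmgxb3 on the opposite strand over 873 bases, and since the strandedness of the libraries is not given, reads there cannot be told apart.

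The ligand of this receptor was also highest in MEF. Csf1 was at 326, 248 and 422 CPM in MEF and at 1.80 to 8.41 CPM in the other 9 libraries. It was called lower in each comparison with MEF (log2 fold changes -7.29 ± 0.242, -5.54 ± 0.214 and -6.70 ± 0.232 SE at Stage1, Stage2 and iPSC, highest adjusted p = 2.04e-13 by edgeR). Il34, the other ligand, was at 1.35 ± 0.527 CPM in MEF (SD, n = 3) and was called lower at Stage2 only. Of the 4 tested genes of this list, 1 was lower and 1 higher at Stage1, 2 lower and 1 higher at Stage2, and 1 lower and 1 higher in iPSC. The gene called higher was Csf3r, named here after its values were seen, with 0 counts in MEF and 17 to 32 counts per group elsewhere. In these comparisons 36.1%, 36.4% and 35.8% of all genes were called lower and 44.2%, 44.6% and 44.9% higher. Of the related receptors, Csf2ra was called in none of the 3 comparisons, at 5.98 ± 2.57 CPM in MEF and 8.29 to 8.90 CPM in the group means of the others.

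Ptprc encodes CD45, the tyrosine phosphatase on the surface of nearly all blood cells other than mature red cells. It was at 4.01, 4.48 and 7.54 CPM in MEF and at 0.208 to 1.31 CPM in the other 9 libraries. This was the smallest fall among the 9: Ptprc was 5.65-fold lower at Stage1 (log2 fold change -2.50 ± 0.508 SE, adjusted p = 0.000223), 6.62-fold lower at Stage2 (-2.73 ± 0.514, adjusted p = 0.000104) and 9.41-fold lower in iPSC (-3.23 ± 0.541, adjusted p = 2.94e-05) by edgeR. The sorted groups held 21 to 36 Ptprc counts each. At Stage2 this was more than any other of the 9, and at Stage1 and in iPSC only Lyz2 had more. A130071D04Rik overlaps Ptprc on the same strand over 5864 bases, and reads there cannot be told apart.

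Tyrobp encodes DAP12 and Fcer1g the common Fc receptor gamma chain, 2 short adaptors that carry an activation motif and pass the signal of their partner receptors to Syk. Tyrobp was at 8.39, 9.56 and 9.65 CPM in MEF, and Fcer1g at 13.5, 11.7 and 12.5 CPM. These were the steadiest of the 10 among the MEF libraries, with coefficients of variation of 7.61% and 7.31%. In the other 9 libraries Tyrobp was at 0 to 0.337 CPM and Fcer1g at 0 to 0.622 CPM.

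Tyrobp was 46.6-fold lower at Stage1 (log2 fold change -5.54 ± 0.499 SE, adjusted p = 1.23e-08) and 49.8-fold lower at Stage2 (-5.64 ± 0.4996, adjusted p = 1.05e-08) by edgeR. In iPSC it had 2 counts against 370 in MEF, a scaled ratio of MEF to iPSC of 178 (95% counting interval 49.0 to 1477). Fcer1g was 35.9-fold lower at Stage1 (-5.17 ± 0.548, adjusted p = 1.10e-07), 53.9-fold lower at Stage2 (-5.75 ± 0.576, adjusted p = 5.32e-08) and 51.2-fold lower in iPSC (-5.68 ± 0.575, adjusted p = 6.23e-08) by edgeR. The log2 fold change of Fcer1g was -6.09 at Stage1 without Stage1 replicate 1 and -6.28 in iPSC without iPSC replicate 3, and that of Tyrobp was -6.17 at Stage1 without Stage1 replicate 3.

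Cd14 encodes the co-receptor that hands lipopolysaccharide to Tlr4. It was at 4.89, 5.82 and 9.23 CPM in MEF and at 0 to 0.556 CPM in the other 9 libraries. Cd14 was 33.8-fold lower at Stage1 (log2 fold change -5.08 ± 0.723 SE, adjusted p = 4.58e-06) and 27.9-fold lower in iPSC (-4.80 ± 0.699, adjusted p = 5.86e-06) by edgeR. At Stage2 it had 2 counts against 279 in MEF, a scaled ratio of 141 (95% counting interval 38.6 to 1168). In iPSC, 8 of its 9 counts fell in replicate 2, and without that library the log2 fold change was -7.00. Without Stage1 replicate 3 that at Stage1 was -6.25.

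**Figure D2:**
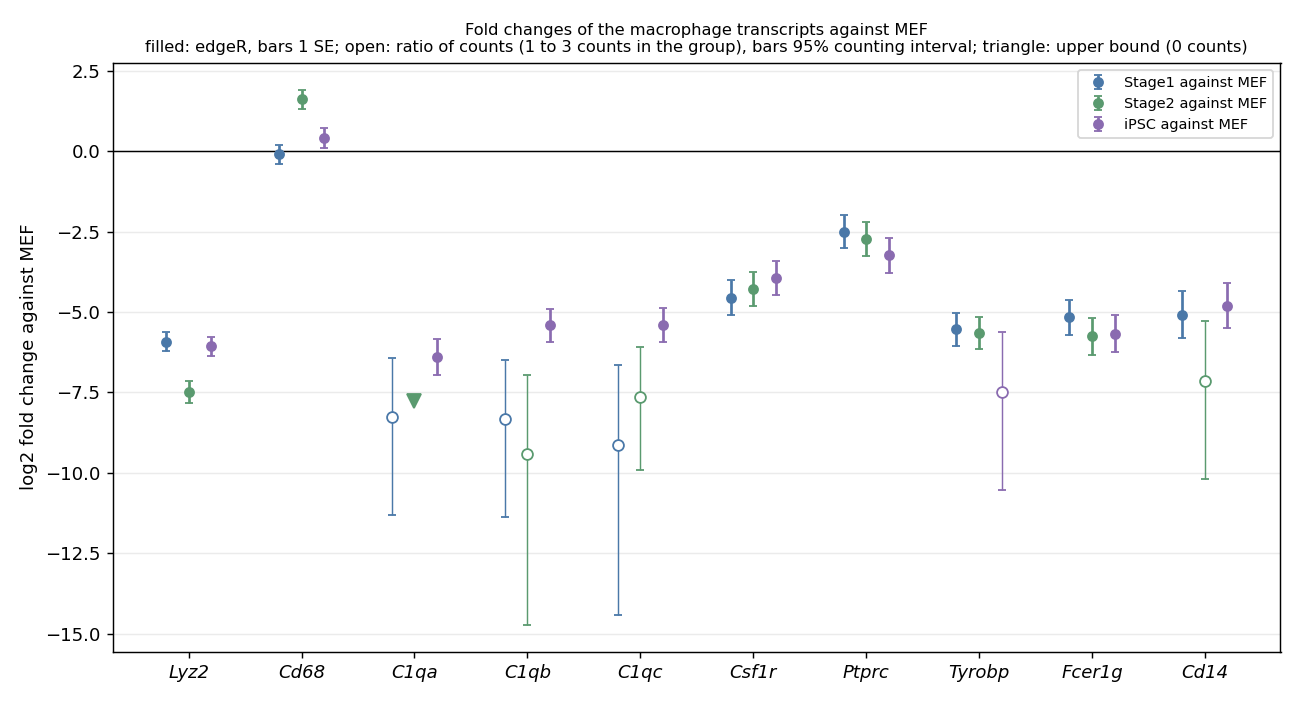
Log2 fold change of each transcript against MEF at Stage1, Stage2 and in iPSC; filled points are edgeR estimates with bars of 1 SE, open points are ratios of counts with 95% counting intervals where the group held 1 to 3 counts, and the triangle is the bound for a group with 0 counts. Ptprc lies nearest to 0 among the 9 genes that fell, at -2.50 to -3.23, and Cd68 lies at -0.09, 1.63 and 0.41.

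The 9 falling transcripts summed to 157, 169 and 177 CPM in MEF replicates 1, 2 and 3, and their shares differed between these libraries. In the other 9 libraries they summed to 1.47 to 3.91 CPM. Lyz2 made up 48.9% of the counts of all 10 genes in MEF replicate 1 (95% Wilson interval 46.2 to 51.6), 52.7% in replicate 2 (50.8 to 54.6) and 33.5% in replicate 3 (31.9 to 35.2). Csf1r made up 2.71% (1.96 to 3.73), 3.58% (2.93 to 4.37) and 7.56% (6.68 to 8.55). Tyrobp made up 5.05%, 5.50% and 5.17%, and its intervals overlap. All these intervals cover counting error only.

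Replicate 3 of MEF was the highest for 8 of the 10 genes, and among all 11976 genes tested at a mean of at least 1 CPM in MEF it was the highest for 47.0%. The ratio of the highest to the lowest MEF library was 3.13 for Csf1r, 2.06 for C1qb, 1.95 for Cd68, 1.89 for Cd14, 1.88 for Ptprc, 1.73 for C1qa, 1.67 for C1qc and 1.46 for Lyz2. It was 1.16 for Fcer1g and 1.15 for Tyrobp. The median coefficient of variation of those 11976 genes was 22.6%, which Lyz2 (18.8%), Tyrobp and Fcer1g undercut and the other 7 exceeded, from 26.5% for C1qa to 61.9% for Csf1r. With 1 value a gene in each library, no test of these differences between libraries was made.

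**Figure D3:**
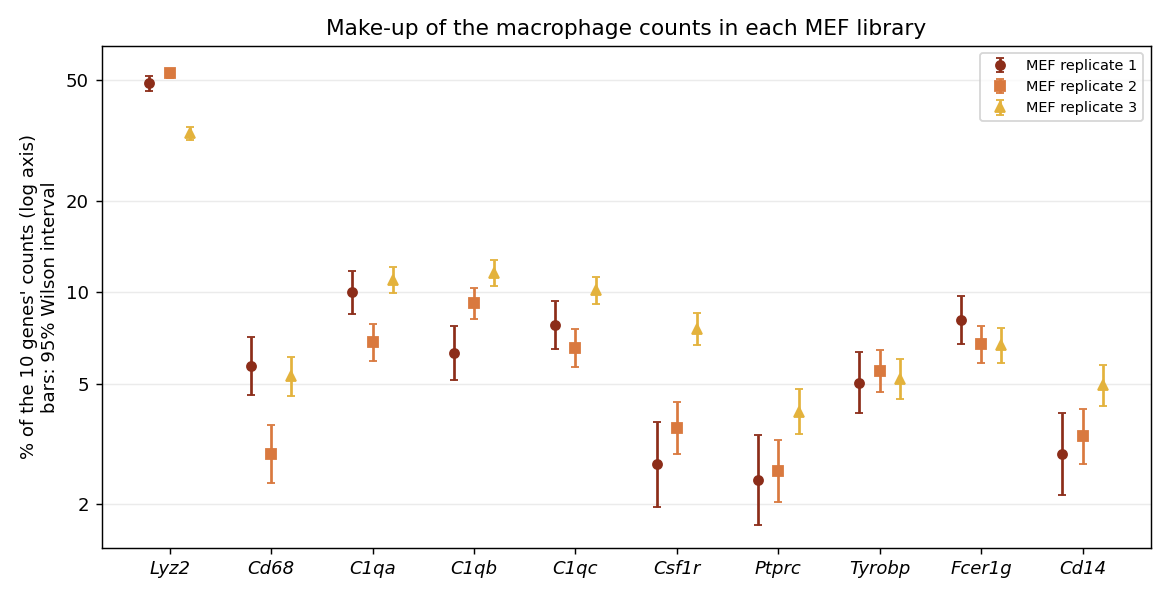
Share of each gene in the summed counts of the 10 genes, in percent on a log axis, for the 3 MEF libraries with 95% Wilson intervals. Lyz2 takes 33.5% in replicate 3 against 48.9% and 52.7% in the others, and Csf1r takes 7.56% there against 2.71% and 3.58%.

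Levels of different genes were compared per kilobase of merged exons (GENCODE M21). In MEF, Lyz2 led at 59.6 ± 11.2 CPM per kb (SD, n = 3). It was followed by C1qa at 15.7 ± 4.17, C1qb at 14.8 ± 5.11, Fcer1g at 14.4 ± 1.05 and Tyrobp at 13.8 ± 1.05 CPM per kb, and Lyz1 stood at 13.5 ± 4.97. C1qc came next at 7.48 ± 2.06, then Cd68 at 6.49 ± 2.13, Cd14 at 3.84 ± 1.32, Csf1r at 1.43 ± 0.887 and Ptprc at 0.292 ± 0.105 CPM per kb. The ranges of neighbours in this order over the MEF libraries did not overlap at 3 steps: Lyz2 above C1qa, Cd14 above Csf1r, and Csf1r above Ptprc. The ranges of all other neighbours over the 3 libraries overlapped. The merged exons of Ptprc span 18.3 kb in this annotation, which lowers its value per length.

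Among the sorted groups few of the 10 were called, at levels where single reads count. Between Stage2 and Stage1, Lyz2 was lower and Cd68 higher at Stage2, and 8 were not called; 19.8% of all genes were called lower and 20.6% higher. Lyz2 was 2.96-fold lower at Stage2 (17 counts against 48, log2 fold change -1.56 ± 0.436 SE, adjusted p = 0.00849 by edgeR). Without Stage2 replicate 3 the fall of Lyz2 was -1.17 and no longer called (adjusted p = 0.0548).

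Between iPSC and Stage2, Cd68 was lower in iPSC while Lyz2 and C1qb were higher, where 8.87% of all genes were called lower and 9.21% higher. Lyz2 was 2.67-fold higher in iPSC (44 counts against 17, log2 fold change 1.42 ± 0.442 SE, adjusted p = 0.0347 by edgeR). C1qb had 14 counts against 1, a scaled ratio of 14.7 (95% counting interval 2.23 to 620, adjusted p = 0.0363 by edgeR). The call of Lyz2 was lost without Stage2 replicate 1, Stage2 replicate 3 or iPSC replicate 1 (adjusted p = 0.0709, 0.155 and 0.181 by edgeR). That of C1qb was lost without Stage2 replicate 1, Stage2 replicate 3, iPSC replicate 2 or iPSC replicate 3 (adjusted p = 0.101, 0.129, 0.0594 and 0.149 by edgeR).

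Between iPSC and Stage1, C1qb and C1qc were higher in iPSC and 8 were not called, where 18.1% of all genes were called lower and 21.3% higher. C1qb had 14 counts against 2, a scaled ratio of 6.90 (95% counting interval 1.58 to 62.6, adjusted p = 0.0429 by edgeR). C1qc had 13 counts against 1, a ratio of 12.8 (1.92 to 545, adjusted p = 0.0283 by edgeR). Without Stage1 replicate 2, Stage1 replicate 3 or iPSC replicate 2 neither was called, and without iPSC replicate 3 only C1qc was. Fcer1g, Csf1r, Ptprc, Tyrobp, Cd14 and C1qa were called in none of the 3 comparisons among the sorted groups.

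A list of 25 further macrophage genes followed the same course. Of the 18 that were tested, 15 were called lower and 1 higher at Stage1 than in MEF. At Stage2 14 were lower and 1 higher, and in iPSC 15 were lower and 2 higher. Of all genes, 36.1%, 36.4% and 35.8% were called lower at Stage1, Stage2 and in iPSC, and 44.2%, 44.6% and 44.9% higher. The list's summed level was 88.0 to 117 CPM in MEF and 14.0 to 27.8 CPM in the other 9 libraries, and its median log2 fold changes were -3.33, -4.46 and -3.41. Emr1, the older symbol of the gene for the macrophage antigen F4/80, was at 5.14, 2.54 and 8.26 CPM in MEF and at 0.09 to 1.10 CPM elsewhere. Sfpi1, the older symbol of the gene for PU.1, was at 1.25, 1.81 and 2.77 CPM in MEF and at 0.06 to 0.42 CPM elsewhere.

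Receptors and a phagosome protein of macrophages were among the genes that fell. Mpeg1, which encodes a pore-forming protein of phagosomes, was at 13.9 ± 3.38 CPM (SD, n = 3), and the scavenger receptor Msr1 at 12.3 ± 1.60 CPM. The Fc receptor Fcgr3 was at 8.40 ± 0.907 CPM, the chemokine receptor Cx3cr1 at 7.83 ± 4.43 CPM and Trem2, a partner receptor of Tyrobp, at 3.57 ± 1.14 CPM. All 5 were called lower in each of the 3 comparisons. Cd163 and Timd4, markers of some resident macrophages, had 0 counts in all 3 MEF libraries. The 18 tested genes held 4 exceptions to the fall. Cd163 was called higher in all 3 comparisons, at means of 0.647 to 1.05 CPM. Ms4a6c was called in none, and Mrc1, the mannose receptor, was called lower in iPSC but not at Stage1 or Stage2 (adjusted p = 0.0650 and 0.294 by edgeR). Irf8, a transcription factor of myeloid cells and B cells, was at 1.04 ± 0.486 CPM in MEF (SD, n = 3). It was lower at Stage1 (log2 fold change -2.59 ± 0.614 SE, adjusted p = 0.000916 by edgeR), not called at Stage2, and higher in iPSC at 8.30 ± 1.30 CPM (3.04 ± 0.431, adjusted p = 4.27e-06 by edgeR).

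Genes expressed by leukocytes in general were more divided. Of 11 tested pan-leukocyte genes, 7 were lower and 1 higher at Stage1 than in MEF. At Stage2 7 were lower and 3 higher, and in iPSC 6 were lower and 3 higher. Among all genes, 36.1%, 36.4% and 35.8% were called lower in that order, and 44.2%, 44.6% and 44.9% higher. Cd53, a tetraspanin of leukocytes, was at 18.04, 7.42 and 13.3 CPM in MEF and at 0.07 to 0.76 CPM elsewhere. Arhgdib was at 188 ± 26.5 CPM in MEF (SD, n = 3) and called lower in each comparison. Ptpn6, which encodes the phosphatase SHP-1, ran the other way, at 1.80 ± 1.63 CPM in MEF and 40.3 ± 6.76, 47.0 ± 5.33 and 30.0 ± 2.93 CPM at Stage1, Stage2 and in iPSC.

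Around Tyrobp and Fcer1g, the receptor genes Trem2, Clec5a and Fcgr3 and the kinase gene Lyn were lower in all 3 comparisons with MEF, while Plcg2 was higher in all 3. Syk was at 9.22 ± 5.26 CPM in MEF (SD, n = 3) and was called higher at Stage2 (38.5 ± 1.71 CPM) and in iPSC (29.2 ± 5.58 CPM). Of the 8 tested genes of this list, 4 were lower and 2 higher at Stage1, and 4 lower and 4 higher at Stage2 and in iPSC. Of all genes, 36.1%, 36.4% and 35.8% were called lower and 44.2%, 44.6% and 44.9% higher in these comparisons, and the list's shares are near them.

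Of 9 tested genes of the lipopolysaccharide receptor pathway around Cd14, 6 were lower and 1 higher at Stage1, 7 lower and 0 higher at Stage2, and 8 lower and 1 higher in iPSC, beside 36.1%, 36.4% and 35.8% of all genes called lower. The gene called higher was Ticam2, an adaptor of Tlr4. Tlr4 itself was at 30.9 ± 4.36 CPM in MEF (SD, n = 3) and 0.266 to 0.828 CPM in the group means of the others. Of 10 tested complement genes other than C1q, 6 were lower in each comparison, and 1, 3 and 3 were higher. Among all genes, 44.2%, 44.6% and 44.9% were called higher. The protease gene C1ra, whose product binds C1q, was at 14.3 ± 6.52 CPM in MEF and the C1 inhibitor gene Serping1 at 31.7 ± 18.1 CPM, and both were called lower in all 3. Its partner gene C1s was called lower at Stage2 and in iPSC but not at Stage1 (13.7 ± 3.25 CPM against 10.3 ± 3.52 in MEF, adjusted p = 0.251 by edgeR).

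Lysosome genes, most of which all cells use, were also higher in the fibroblasts. Of 12 tested, 12 were lower at Stage1 than in MEF, 11 at Stage2 and 11 in iPSC, beside 36.1%, 36.4% and 35.8% of all genes. The summed level of the list was 4711 to 5038 CPM in MEF against 919 to 1427 CPM elsewhere. The mean of Lamp1 was 996 ± 122 CPM in MEF and 368 ± 74.7 at Stage2 (SD, n = 3). Cd68, whose protein belongs to the same family as that of Lamp1, thus moved against this list at Stage2.

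Most markers of 5 other blood lineages were at or near 0 in MEF. All 8 measured neutrophil genes and all 5 B cell genes had 0 counts in the 3 MEF libraries, among them S100a8, Elane, Mpo and Cd79a. Of 9 T and NK cell genes 7 were at 0 in MEF, Cd3e and Cd4 among them. Of 8 mast cell genes 5 were at 0, and of 7 measured erythroid genes 6 were at 0, but the adult globin genes among them had 0 counts in all 12 libraries and so say nothing of MEF. The summed level in a MEF library was at most 4.15 CPM for the T and NK list, 0.784 CPM for the mast cell list and 0.0669 CPM for the erythroid list. The highest exception among the markers of these 5 lineages was Klrb1c, a receptor of NK cells, at 0.125, 3.08 and 0.302 CPM in MEF replicates 1, 2 and 3. Megakaryocyte genes were not all near 0: their 5 genes summed to 5.76 to 22.2 CPM in MEF and 1.23 to 4.54 CPM elsewhere. Ptprc, Tyrobp and Fcer1g are also expressed by other blood cells, and the source of their transcripts in MEF was not tested.

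In the sorted groups the neutrophil, B cell and erythroid genes had scattered low counts, while the mast cell and the T and NK lists held higher sums. The 8 neutrophil genes summed to 0.417 to 1.10 CPM in the 9 stage and iPSC libraries, and the 5 B cell genes had means of up to 1.01 CPM. The mast cell list summed to 62.0 to 116 CPM in these libraries, and Kit alone had group means of 71.0 to 102 CPM. The T and NK list summed to 12.7 to 28.4 CPM, and Lck had group means of 11.5 to 21.8 CPM. The means of the 9 macrophage transcripts without Cd68 lay between 0 and 1.30 CPM there. Genes with and without counts in MEF were thus both found at low levels in the sorted groups, where reads outside genes were 35.0 to 53.4%. The part of that share in the residual counts was not tested.

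**Figure D4:**
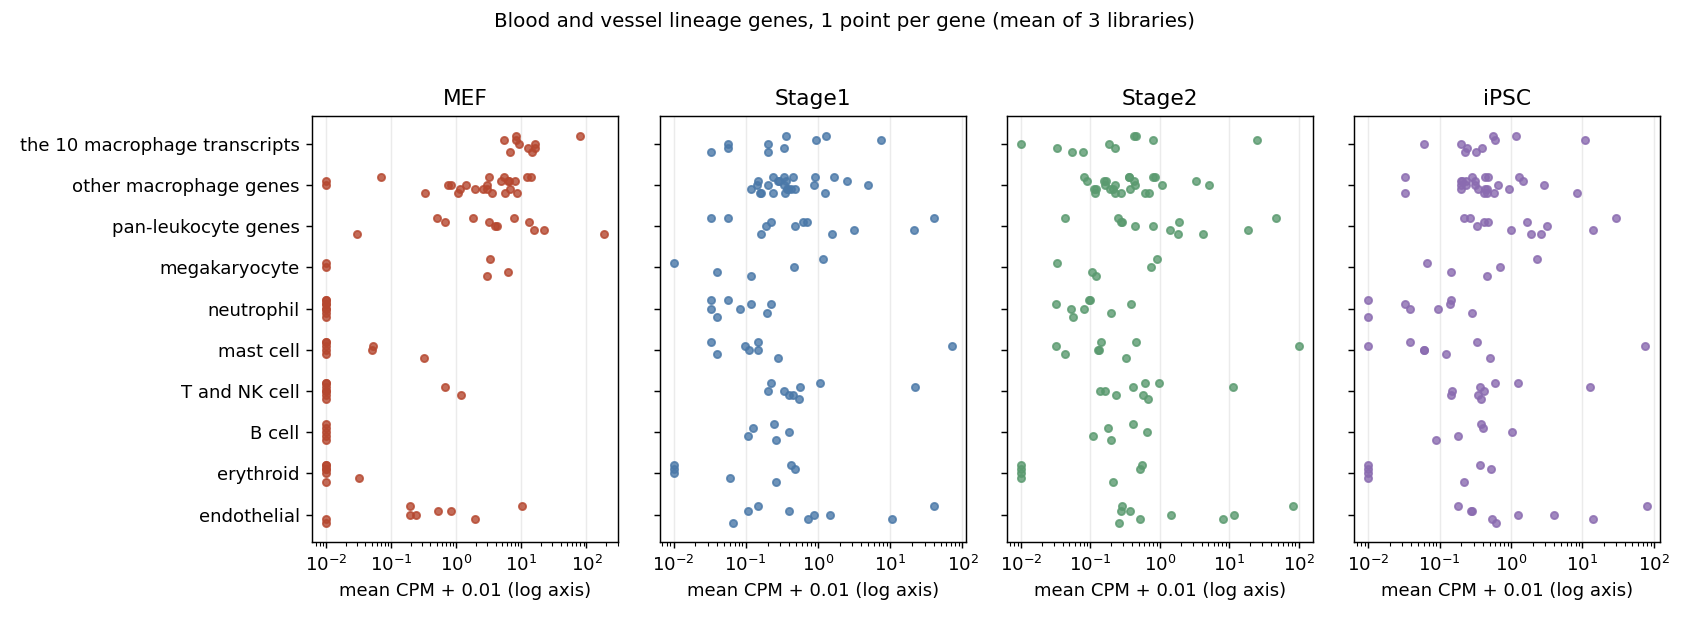
Mean CPM plus 0.01 of 3 libraries on a log axis, 1 point per gene, for 10 lists of blood and vessel genes in the 4 groups. In MEF the macrophage lists lie mostly above 1 CPM and the neutrophil and B cell lists lie at 0, and in the sorted groups most lists share the range below 1 CPM.

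Over the 12 libraries the 9 falling genes followed one another. Pearson's r of each gene's log2 CPM (prior count 2) with the mean of the other members was 0.98 for C1qa, 0.97 for C1qc, 0.96 for C1qb, Csf1r and Fcer1g, 0.95 for Tyrobp, 0.94 for Lyz2, 0.92 for Cd14 and 0.90 for Ptprc. It was -0.38 for Cd68. The points share the contrast of 3 MEF libraries with 9 others, so these values are a description. By the same measure 1272 of 11966 other genes expressed in MEF had an r above 0.95 with the mean of the 10. The 8 highest were Sidt2, Lrp10, Flna, Amotl2, Cnn2, Wwtr1, Axl and Glt25d1, with r of 0.995 to 0.996. Flna, an actin crosslinker, was at 3789 ± 925 CPM in MEF (SD, n = 3), and Axl, a receptor tyrosine kinase, at 803 ± 124 CPM.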

How the data were processed

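Total RNA from the miRNeasy Mini Kit was sequenced on an Illumina instrument, per the labels' protocols. The deposited files hold the authors' raw counts of reads per gene, 1 file per library, with no normalization. The submitters' processing notes name the build mm10 and the tools TopHat2 2.0.9, Bowtie2 2.2.6, SAMtools 0.1.19, HTSeq 0.5.4p3 and DESeq2 1.12.4. Neither strandedness nor the annotation used for counting is given in the sources used here.

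The 5 summary lines stayed out of totals and tests. Gene totals were 8916223 to 19011944 per library, and 804 of 23420 genes had no count. All 12 libraries entered 1 fit in R 4.3.3 with edgeR 4.0.16: filterByExpr by group (14770 genes kept), TMM scaling, a quasi-likelihood fit (robust) by group (common biological coefficient of variation 0.190) and Benjamini-Hochberg adjustment over all genes kept, with calls at an adjusted p below 0.05. Levels are TMM-scaled CPM. The SE of a log2 fold change is its size over the square root of the test's F. A floor of 3 counts, taken over a group for folds, bounds a gene at 0, and groups with 1 to 3 counts are given as ratios with 95% counting intervals. No pair of libraries differed by as little as sampling noise, so all were counted singly. Replicate numbers were not taken to pair the libraries, since not every same-numbered pair correlated above 0.1. Alternatives were other scalings and filters, DESeq2 1.42.0, fits of 2 groups, the replicate number as a term, groups named from the characteristics, and each library left out in turn.

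The 10 genes and all lists were chosen with earlier results of these data known. Of genes outside the 10, list genes were named only at a mean of at least 1 CPM in a group or as defining markers at 0. Csf3r, Cdh5, Erg, Lyz1 and the 8 genes most alike were also named. Hmgxb3, Eif4a1 and A130071D04Rik are named by position. List symbols were matched to the files directly for 172 entries and through older symbols for 4, and 2 had no match. Some genes of the lists are not reported here by name. Positions and exon lengths are from GENCODE M21 (GRCm38), and promoters from RefSeq.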

Additional observations from a re-analysis of the deposited data

How the results depend on the processing

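In 20 alternative settings, the 9 calls below MEF held at Stage1, Stage2 and in iPSC in all but 1. Naming the groups from the characteristics left 1, 0 and 0 members called lower than MEF at Stage1, Stage2 and in iPSC, and 9 between iPSC and Stage2 and 10 between iPSC and Stage1, which follows from the changed names. With the fit restricted to the 2 groups compared, 1 member was called between iPSC and Stage2 and 0 between iPSC and Stage1, and Lyz2 missed the threshold between iPSC and Stage2 (adjusted p = 0.0722). DESeq2, both other scalings and both other filters changed no count of called members by more than 1.5 times.

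Leaving out each library kept 9 calls below MEF in every comparison, with some fold sizes moving by over 1.5 times, and gave 1 to 2 called members between Stage2 and Stage1, 1 to 3 between iPSC and Stage2 and 0 to 3 between iPSC and Stage1. The log2 fold change of Cd68 between Stage1 and MEF, not called, ranged from -0.52 to 0.11 over these fits and was 0.085 on library totals, which raised the median of all genes against MEF by 0.18 at Stage1, 0.39 at Stage2 and 0.28 in iPSC.

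Deviations of same-numbered libraries correlated at -0.0675 to 0.197 (18 pairs, 3 above 0.1), and 8 of 12 libraries correlated best with their own number. With the replicate block 9 members were called lower than MEF in each of the 3 comparisons, and 2, 3 and 2 were called in either direction between Stage2 and Stage1, iPSC and Stage2, and iPSC and Stage1, as without it, and calls over all genes moved from 11870 to 11774 at Stage1 against MEF. At 3 counts per library the floor was 0.158 to 0.336 CPM before TMM scaling. Differences among the sorted groups in the C1q chains, Tyrobp and Cd14 thus rest on few reads.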

Other observations

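Some genes of platelets and of vessel lining also had their highest group mean in the fibroblast libraries. Ppbp, a platelet chemokine, was at 2.63, 12.6 and 3.44 CPM in MEF replicates 1, 2 and 3 and had group means of 0.0298 to 0.135 CPM in the sorted groups. It was called lower at Stage1, Stage2 and in iPSC (log2 fold changes -7.43 ± 0.992, -5.85 ± 0.833 and -5.47 ± 0.807 SE, highest adjusted p = 6.94e-06 by edgeR). Pf4, made by megakaryocytes and by some macrophages, was at 2.99 ± 1.47 CPM in MEF (SD, n = 3) and Itga2b, the megakaryocyte integrin, at 3.24 ± 1.82 CPM. Group means in the sorted groups were 0.109 to 0.445 CPM for Pf4 and 0.904 to 2.32 CPM for Itga2b. The MEF range of Itga2b, 1.38 to 5.01 CPM, overlapped that of each sorted group, with iPSC at 1.81 to 2.69 CPM. Gp9 and Gp1ba, which encode parts of the platelet receptor for von Willebrand factor, had 0 counts in MEF. Ppbp was highest in MEF replicate 2, as was Lyz2.

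Emcn, an endothelial sialomucin, was at 10.1 ± 5.95 CPM in MEF (SD, n = 3) and was called lower in all 3 comparisons (highest adjusted p = 1.45e-06 by edgeR). It was the 1 endothelial gene of 6 tested that was lower than MEF, and the other 5 were higher in all 3 comparisons. Among all genes, 36.1%, 36.4% and 35.8% were called lower at Stage1, Stage2 and in iPSC, and 44.2%, 44.6% and 44.9% higher. Cdh5 and Erg, endothelial genes that were not tested, also had their highest group mean in MEF. These means were 0.804 ± 1.39 and 0.511 ± 0.454 CPM (SD, n = 3), and Cdh5 had counts in only 1 MEF library. Tie1 and Cldn5, other endothelial genes, had 0 counts in MEF. Pecam1 ran against Emcn: its mean was 0.187 ± 0.181 CPM in MEF, 41.0 ± 9.20 at Stage1, 83.5 ± 12.8 at Stage2 and 79.1 ± 14.1 in iPSC. Kit, listed here with mast cells and also expressed by stem cells, had a mean of 0.0418 ± 0.0723 CPM in MEF and of 71.0 ± 9.91 at Stage1.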
